A study of Mus musculus with 4 samples.

Results

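Livers of male C57BL/6J mice on the FPC diet with 0.05% cholesterol were sampled by fine-needle aspiration (FNA) at week 24 (P-LC24) and again at week 32 (I-LC32). Described here are all cell barcodes of these 2 libraries with at least 500 unique molecular identifiers (UMIs, each standing for 1 captured transcript), at least 300 detected genes and at most 10% mitochondrial UMIs. These limits left 5142 cells in P-LC24 and 7418 in I-LC32, together 12560 of the 26825 cells that the same limits left in the 4 libraries of the series. The FPC diet adds fructose, palmitate, cholesterol and trans fat to the feed and gives mice a fatty, inflamed liver. The mice began it at 7 weeks of age, so that they were 31 weeks old at the first sampling and 39 weeks old at the second. Both samplings took the same 3 mice at the same cholesterol level, and the later one followed 8 further weeks of diet and age and an earlier aspiration of the same livers. These and the preparation of each library cannot be told apart. From each mouse 4 biopsies were taken, and all 12 of a time point were pooled into 1 library, in which the mice cannot be told apart either. With 1 library a time point there was no replicate and no test, and values are descriptions of these 2 libraries. Values in parentheses after a share or a ratio are its 95% interval, by the exact Clopper-Pearson method for a share and by the exact binomial method for a ratio of UMI counts, and these cover counting error only. For comparison, ratios of the high cholesterol pair are given, P-HC24 with 1.25% cholesterol for 24 weeks and I-HC32 sampled 8 weeks after that group had been moved to 0.05%. The 2 pairs share no library.

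The liver holds lymphocytes and myeloid cells beside its hepatocytes, and needle aspirates also carry blood. A B cell makes its antibody from 1 heavy chain and 1 light chain, each with a variable (V) segment chosen by DNA rearrangement, and all descendants of a B cell inherit the same choice. B-1 cells are a self-renewing B cell kind, frequent in body cavities, that makes natural IgM. CD8 T cells under lasting stimulation carry inhibitory receptors such as PD-1 (Pdcd1) and TIM-3 (Havcr2), a state known as exhaustion. Cells with little sterol raise the genes of cholesterol synthesis through SREBP2, and cells with much oxysterol raise the export genes that liver X receptors (LXR) control.

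P-LC24 held 41238539 UMIs in kept cells (median 6403 a cell) and I-LC32 68788780 (median 7209.5). Barcodes with under 300 genes numbered 1743 in P-LC24 and 2150 in I-LC32, and haemoglobin made up 96.6% and 96.7% of their UMIs. The 2 libraries shared 27 kept barcodes. Mitochondrial genes gave a median of 3.81% of the UMIs of a cell in P-LC24 and 4.86% in I-LC32. The labelled cell type, non-parenchymal liver cells, was borne out for immune cells, since all 6 B cell markers were found in at least 25% of the cells of the naive B-like and B-1-like clusters, and all 6 T cell markers in those of clusters 3, 4 and 6. No cluster was led by markers of liver endothelial, stellate or Kupffer cells (6 of 9 Kupffer markers were found in the peritoneal macrophage-like cluster), and hepatocyte-like cells numbered 33 in P-LC24 and 9 in I-LC32. Clusters were rebuilt from the counts, and a cluster was called "X-like" only where markers of that type led it. All other clusters keep a number.

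B cells with mainly Iglc1 light chain UMIs and a Mcc UMI were common in I-LC32 and rare in the other 3 libraries. They were defined, after the values had been seen, as cells with Cd79a (a subunit of the B cell receptor), with more Iglc1 UMIs than UMIs of all other light chain constant genes together, and with a UMI of Mcc, a gene known for its loss in colorectal tumours. Of B cells (cells with a Cd79a UMI), 10 of 3448 met this rule in P-LC24, or 0.290% (0.139% to 0.533%). In I-LC32, 607 of 5314 did, or 11.4% (10.6% to 12.3%). In P-HC24 9 cells met it and in I-HC32 8 cells. The share in I-LC32 was thus far above that of every other library. Sequences of the segments that mark these cells are given first, because the finding rests on telling these segments from near relatives. They were read from GRCm39 at the gene models of GENCODE vM39, and all lie on the minus strand. The first group gives the last 240 bases of the V exon, with the codon of the conserved cysteine before the joining site in capitals, for Ighv8-5 at chr12:115031180-115031419 in the heavy chain locus, Iglv1 at chr16:18903767-18904006 in the lambda locus and Igkv6-29 at chr6:70115446-70115685 in the kappa locus.
Ighv8-5: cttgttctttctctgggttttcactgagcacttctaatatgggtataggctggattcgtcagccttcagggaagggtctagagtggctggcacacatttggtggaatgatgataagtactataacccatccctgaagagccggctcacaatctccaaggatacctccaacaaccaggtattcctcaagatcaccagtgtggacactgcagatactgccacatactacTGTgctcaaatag
Iglv1: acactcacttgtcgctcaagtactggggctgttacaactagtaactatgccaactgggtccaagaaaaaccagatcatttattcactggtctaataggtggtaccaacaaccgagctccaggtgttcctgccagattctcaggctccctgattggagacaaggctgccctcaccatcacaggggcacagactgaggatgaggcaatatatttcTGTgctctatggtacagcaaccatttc
Igkv6-29: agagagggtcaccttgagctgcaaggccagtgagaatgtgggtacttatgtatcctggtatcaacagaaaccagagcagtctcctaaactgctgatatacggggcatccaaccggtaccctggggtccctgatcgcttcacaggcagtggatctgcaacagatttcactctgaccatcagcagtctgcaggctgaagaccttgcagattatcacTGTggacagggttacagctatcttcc

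The second group gives the first 100 bases of the lambda constant exons from their shared start, with capitals where the 3 genes are not all alike. Iglc1 (chr16:18880720-18880819) differed from Iglc2 (chr16:19017501-19017600) at 23 of the 100 positions and from Iglc3 (chr16:18884330-18884429) at 23, whereas Iglc2 and Iglc3 differed at 6. Iglc1 thus differs from the other lambda constant genes at many bases within this stretch, while Iglc2 and Iglc3 are closer to each other. The libraries are 3' data, and whether their reads cover this stretch was not tested.
Iglc1: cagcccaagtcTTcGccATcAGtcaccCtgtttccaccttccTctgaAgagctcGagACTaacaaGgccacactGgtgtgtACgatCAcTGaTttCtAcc
Iglc2: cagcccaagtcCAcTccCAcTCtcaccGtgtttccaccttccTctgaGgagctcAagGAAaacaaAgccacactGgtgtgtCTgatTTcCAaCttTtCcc
Iglc3: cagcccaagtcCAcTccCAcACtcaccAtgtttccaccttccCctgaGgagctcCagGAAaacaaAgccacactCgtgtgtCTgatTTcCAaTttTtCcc

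The heavy chain V genes, which the rule did not use, were nearly uniform in these cells of I-LC32. Ighv8-5 gave 179 of their 196 heavy chain V UMIs, or 91.3% (86.5% to 94.9%), against 20 of 1118, or 1.79% (1.10% to 2.75%), in the other B cells of I-LC32. Iglv1 gave 448 of 498 lambda V UMIs (90.0%), but this segment is the common partner of Iglc1, which the rule required. Its share was 67.7% in the other B cells, which were not chosen for Iglc1, so these shares are of unlike cells. Igkv6-29 gave 505 of 1232 kappa V UMIs (41.0%, against 2.88% in the other B cells), followed by Igkv8-28 with 26.7% and Igkv2-109 with 13.4%. V UMIs are sparse in 3' data, with fewer heavy chain V UMIs than cells. The 10 cells of P-LC24 held 6 heavy chain V UMIs, 4 of them Ighv8-5, and 26 lambda V UMIs, 25 of them Iglv1. Iglv1 is again the common partner of the required Iglc1. The cell of P-LC24 with the most Iglc1 UMIs (230, with 7 of Mcc) held 3 Ighv8-5 and 7 Iglv1 UMIs. The same pair of segments was thus seen together in that cell at week 24, and whether other cells of P-LC24 held both was not tested. In the 9 cells of P-HC24, 3 of 7 heavy chain V UMIs were Ighv8-5 but all 4 lambda V UMIs were Iglv2. In the 8 cells of I-HC32 neither of the 2 heavy chain V UMIs was Ighv8-5, while all 7 lambda V UMIs were Iglv1. Over all kept cells of a library Ighv8-5 had 8 UMIs in P-LC24, 199 in I-LC32, 8 in P-HC24 and 8 in I-HC32.

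**Figure D1:**
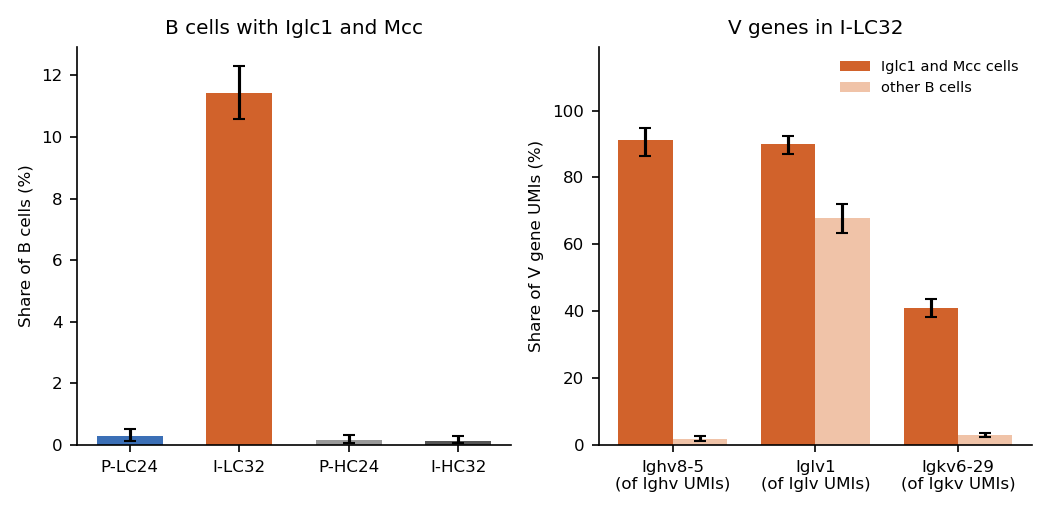
Left, share of B cells (cells with a Cd79a UMI, y axis in %) that had mainly Iglc1 light chain UMIs and a Mcc UMI, in each library. Right, share (y axis in %) of heavy chain, lambda and kappa V gene UMIs given by Ighv8-5, Iglv1 and Igkv6-29 in these cells and in the other B cells of I-LC32, with 95% exact intervals as error bars in both panels. The bar of I-LC32 stands at 11.4% and the other 3 are under 0.3%, and Ighv8-5 gives 91.3% of heavy chain V UMIs in these cells against 1.79% in the other B cells.

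Of the 607 cells, 535 lay in cluster 5 and 31 in the erythroid-like cluster, and the rest were spread over 9 clusters. Cluster 5 differed in kind between the libraries: lambda exceeded kappa UMIs in 44 of its 148 cells in P-LC24 (29.7%) and in 616 of its 630 cells in I-LC32 (97.8%). Ighv8-5 gave 3.13% of its heavy chain V UMIs in P-LC24 and 88.8% in I-LC32, while Ighv11-2, a V gene typical of B-1 cells, gave 27.3% and 0.971%. The size of cluster 5 at the 2 weeks therefore compares unlike cells. So do its gene ratios, with 902 of 7768 genes (11.6%) higher by 1.5-fold or more and 558 (7.18%) lower, among them Krt18 at 3.83 and Agbl1 at -1.53. In all B cells lambda exceeded kappa in 8.03% (7.15% to 8.99%) of P-LC24 and 19.5% (18.4% to 20.6%) of I-LC32, and in 7.29% of P-HC24 and 7.66% of I-HC32. The 607 cells were deep, with a median of 13086 UMIs against 7408.5 over all B cells of I-LC32. B-1-like cells of I-LC32 were nearly as deep, with a median of 11785.5. Whether asking for a Mcc UMI picked deep cells was not tested. The 607 cells also passed a stricter mitochondrial limit less often than all B cells, since at a limit of 5% 6.81% of the remaining B cells met the rule. In I-LC32, cells over 5% were 76.3% of cluster 5 and 78.2% of B-1-like cells, so this too was shared with B-1-like cells.

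Beside B-1-like cells of the same library, the 535 cells in cluster 5 shared the main B-1 genes. The transcription factor Bhlhe41 stood at 95.6 CPM (UMIs scaled to a common total for all groups of cells) in them, 87.0 in the 1223 B-1-like cells without the rule and 7.71 in naive B-like cells. Zbtb32, a transcriptional repressor, stood at 111, 99.1 and 8.50 CPM. Both genes thus set these cells with the B-1-like cells and apart from naive B-like cells. Cd5, the classical B-1a surface marker, was higher in them than in B-1-like cells at a log2 ratio of 1.44 (1.09 to 1.79), and Cd9 and Spn (CD43) were higher at 0.91 each. Ighd was lower at -1.16 and IgM made up 97.9% of the heavy chain constant UMIs of cluster 5 in I-LC32. Genes far above the B-1-like level were Xlr4c (3.58), the epithelial transcription factor Ehf (3.26), Tnfsf8 (CD30 ligand, 3.07), Stxbp6 (3.02) and the keratin Krt18 (2.86), whose UMIs were found in 63.6% of these cells. Mcc, which the rule required, was at 606 CPM against 67.8. Genes far below were the Wnt receptor Fzd6 (-5.23), Wipf3 (-4.74), Lrmda (-4.59), the DNA repair gene Mgmt (-3.57), Anxa1 (-3.24) and Agbl1 (-2.87), which led the B-1-like cluster. These genes were chosen among 7487 compared after the cells had been defined, so they describe them and test nothing.

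The make-up of the immune cells differed at several points between the weeks, most of all for NK-like and neutrophil-like cells and within the B cells. Naive B-like cells, with IgD and CD23 (Fcer2a), made up 45.8% (44.4% to 47.2%) of the 4982 immune cells of P-LC24 and 36.0% (34.8% to 37.1%) of the 7167 of I-LC32. B-1-like cells made up 11.4% (10.6% to 12.3%) and 17.2% (16.3% to 18.1%), and cluster 5 2.97% and 8.79%. B cells as a whole stood at 64.8% and 65.5%, with overlapping intervals, so that the shift lay among B cells. B-1-like cells carry more mitochondrial UMIs than naive ones, and cells over 5% were 53.6% of them in P-LC24 and 78.2% in I-LC32. At a mitochondrial limit of 5% the difference of their shares was 0.682 points in place of 5.77, and B cells as a whole were 10.6 points lower in I-LC32.

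T cells made up 21.1% of immune cells in P-LC24 and 23.7% (22.7% to 24.7%) in I-LC32, with intervals that did not overlap. At a mitochondrial limit of 5% the difference of the T cell share was 9.88 points in place of 2.59, that of cluster 4 6.92 in place of 3.49 and that of cluster 3 1.94 in place of -1.55. Cluster 4, with Gzmk, Ccl5, Pdcd1 and Tox among its leading genes, made up 5.34% (4.73% to 6.00%) and 8.83% (8.19% to 9.51%). At a finer resolution its Cd8a+ part had 208 and 449 cells (4.18% and 6.26%), and a part with Cd4 and Tnfrsf4 (OX40), with Foxp3 in 13.8% of its cells, had 56 and 183 cells (1.12% and 2.55%). Both parts of cluster 4 were thus larger in I-LC32. Cluster 3, with Lef1, Tcf7 and Dapl1, had 547 and 676 cells (9.43% in I-LC32, with overlapping intervals), and its Cd8b1 part 6.24% and 4.56%. NK-like cells, with Ncr1 and Klrb1c, made up 5.26% (4.66% to 5.92%) in P-LC24 and 2.26% (1.93% to 2.63%) in I-LC32, a share 2.33-fold lower. Neutrophil-like cells made up 2.65% (132 cells) and 0.502% (36 cells), 5.27-fold lower. Neutrophil-like cells were shallow, with a median of 4510 and 2733.5 UMIs, and the part of the UMI and gene limits in their share was not tested. Monocyte-like cells (3.37% and 4.07%), peritoneal macrophage-like cells (0.723% and 1.05%) and dendritic-like cells (7 and 27 cells) had overlapping intervals. A share falls when another rises, so a gain or loss of cells cannot be read from them.

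**Figure D2:**
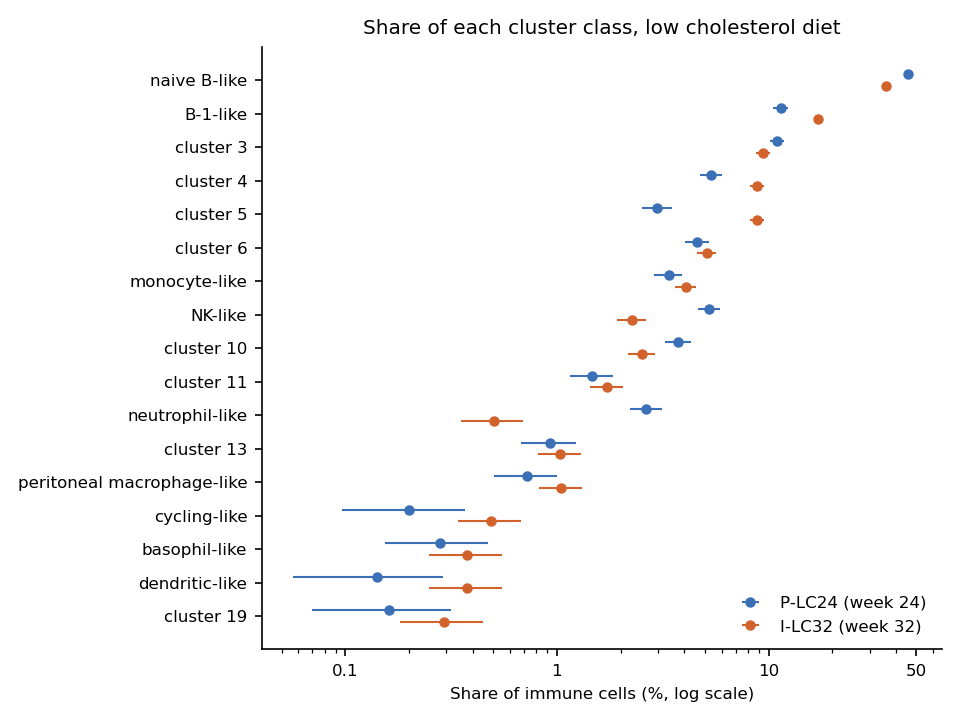
Share of immune cells (x axis, %, log scale) in each cluster class of P-LC24 and I-LC32, with 95% exact intervals as bars. NK-like (5.26% and 2.26%) and neutrophil-like cells (2.65% and 0.502%) lie to the left in I-LC32, and B-1-like cells and clusters 4 and 5 lie to the right.

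Summed over all kept cells, few genes were far apart, and the ratios were carried partly by the make-up of the libraries. Of 7229 genes compared (those detected in 10% or more of the cells at one of the weeks, with 100 or more UMIs in all), 221 (3.06%) were higher in I-LC32 by 1.5-fold or more and 240 (3.32%) were lower by as much. The median log2 ratio was -0.01. When each cluster was held at its share of P-LC24, 117 genes (1.62%) were higher and 166 (2.3%) lower. Of the 221 genes 109 (49.3%) remained past 1.5-fold under fixed shares, and of the 240 genes 153 (63.8%) did. In summed cells, more cells of a type and more RNA per cell cannot be told apart, and fixed shares answer this only for the clusters drawn here. In the high cholesterol pair 331 of the same 7229 genes (4.58%) were higher and 94 (1.3%) lower, around a median of 0.19. Of the 221 genes 65 were also past 1.5-fold upward in that pair, and of the 240 genes 47 downward, whereas 0 and 6 went the opposite way.

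The highest ratio was that of Mcc, with 340 UMIs in P-LC24 and 6790 in I-LC32, a log2 ratio of 3.58 (3.42 to 3.74), against 0.29 in the high cholesterol pair. Plcd3, a phospholipase C, followed with 262 and 1910 UMIs (2.13), then Slamf9 (1.63), Ankrd9 (1.56) and Syn3 (1.56). When the cells with Iglc1 and Mcc were left out of both libraries, these 5 genes were found in under 10% of the remaining cells and gave no ratio, as the choice of the cells makes likely for Mcc itself. Without these cells Nopchap1 moved from 1.43 to 0.41, Pou2af2, a cofactor of POU factors, from 1.45 to 0.81 and the calcium channel gene Cacna1s from 1.51 to 0.97. The ratios of these 3 genes were thus smaller without these B cells. Tppp, a tubulin-binding protein, had 1.40 with these cells, 1.12 without and 0.98 in the high cholesterol pair.

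The lowest ratio was that of Angptl1 (chr1:156666132-156688648), a secreted angiopoietin-like protein, with 1252 UMIs in P-LC24 and 480 in I-LC32, a log2 ratio of -2.12 (-2.28 to -1.97). It stood at -1.98 with fixed shares and at -0.03 in the high cholesterol pair. The linker histone H1f4 had 1388 and 769 UMIs (-1.59) and the core histone H4c4 783 and 494 (-1.40), with -0.45 and -0.62 in the high cholesterol pair. Both histone genes thus stayed low with fixed shares, at -1.73 and -1.64. Lysmd4 had 1281 and 822 UMIs (-1.38), and 0.23 in the high cholesterol pair. Cdk8, a kinase of the Mediator complex, had 12081 and 8489 UMIs (-1.25), with -2.08 in the high cholesterol pair. Prf1, which encodes perforin, moved from -1.28 to -0.49 under fixed shares. Cr2 (complement receptor 2, chr1:194819119-194859091), high in naive B-like cells, moved from -1.17 to -0.77. Gvin2, a very large interferon-inducible GTPase (-1.23), and Usp50 (-1.22) stood at -1.06 and -1.12 with fixed shares.

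**Figure D3:**
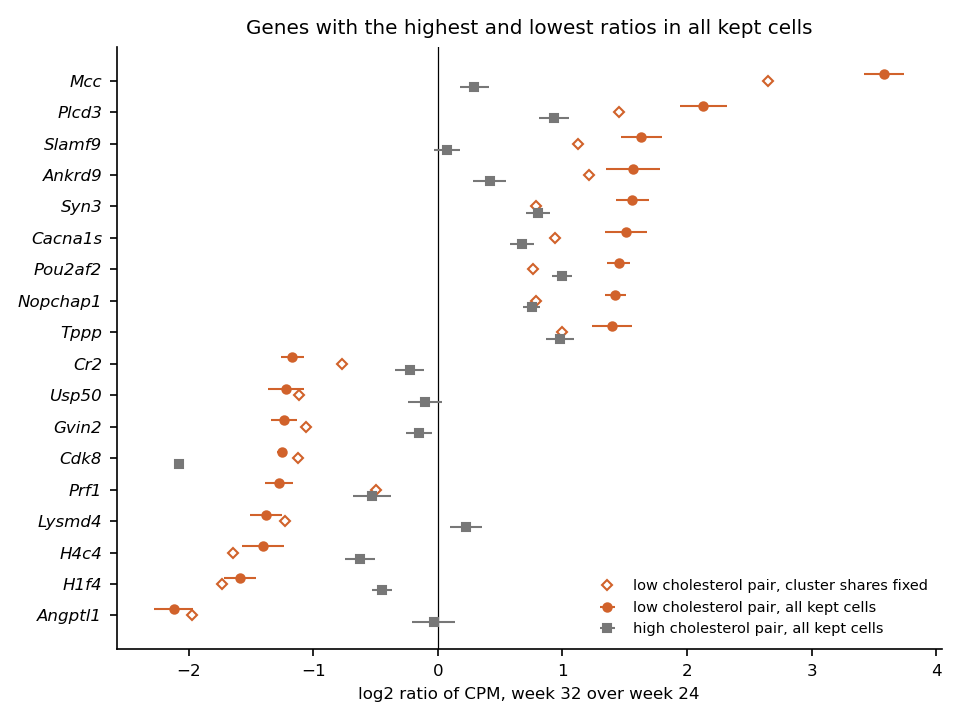
Log2 ratio of CPM, week 32 over week 24 (x axis), of genes with the highest and the lowest ratios in all kept cells of the low cholesterol pair, with 95% intervals for counting error. Circles are all kept cells, open diamonds the same pair with cluster shares fixed at P-LC24, and squares the high cholesterol pair; Mcc moves from 3.58 to 2.65 under fixed shares and Prf1 from -1.28 to -0.49, and Angptl1 is at -2.12 and -0.03 in the 2 pairs.

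Some genes were past 1.5-fold in the same direction in every cluster class in which they were compared, of 5928 genes compared in at least 6 classes. Higher in I-LC32 was Rbm3, a cold-inducible RNA-binding protein, in all 11 classes with a median log2 ratio of 0.92, against -0.04 in all cells of the high cholesterol pair. Lower in I-LC32 were Cdk8 in 11 of 11 classes (-1.09), mt-Nd6 in 10 of 10 (-1.22), Skp1, a ubiquitin ligase subunit, in 10 of 10 (-0.81), Galnt11 in 10 of 10 (-0.76), the RNA polymerase subunit Polr2l in 9 of 9 (-1.06), Lysmd4 and Phykpl in 7 of 7 and the linker histone H1f2 in 6 of 6. The classes of a library share its preparation, so they are not replicates, and time and preparation cannot be told apart here.

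Some genes of sterol synthesis were higher in I-LC32. Of 24 genes on the list 11 were compared in all kept cells, 4 were at least 1.5-fold higher and 0 lower, against 3.06% and 3.32% of all genes, with a median log2 ratio of 0.53. Cyp51, the lanosterol demethylase (chr5:4123416-4154751), had 1298 UMIs in P-LC24 and 4006 in I-LC32, a log2 ratio of 0.89 (0.80 to 0.98). Fdps, which makes farnesyl pyrophosphate (chr3:89000888-89019213), had 651 and 1987 UMIs (0.87, 0.74 to 1.00), Idi1, the isopentenyl pyrophosphate isomerase, 460 and 1273 (0.73) and Pmvk, phosphomevalonate kinase, 638 and 1627 (0.61). The 4 genes are enzymes between mevalonate and cholesterol, and all 4 kept ratios of 0.67 or more with fixed shares. The later enzymes Ebp (0.54) and Msmo1 (0.53) and the earlier Hmgcs1 (0.29) lay below 1.5-fold. Insig1, which holds SREBP2 back, was at 0.09 and Srebf2 itself at 0.25. The list was thus uneven, with intervals of Insig1 and Sc5d that include 0. In the high cholesterol pair the median of the list was 0.25 beside a median of 0.19 over all genes, with Cyp51 at 0.80, Fdps at 0.25, Idi1 at 0.05 and Pmvk at -0.02.

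Within classes the median of the sterol list was above 0 in 7 of the 7 classes with at least 4 of its genes compared, from 0.14 in monocyte-like to 0.67 in naive B-like cells. In naive B-like cells 4 of 7 were at least 1.5-fold higher (background 3.26%), namely Fdps with 150 and 452 UMIs (1.37, 1.10 to 1.65), Cyp51 (0.99), Pmvk (0.84) and Hmgcs1 (0.67). In cluster 3, 7 of 14 were (background 7.64%), among them Fdps (1.16), Pmvk (1.05), Idi1 (0.93), Insig1 (0.88), Cyp51 (0.82) and Srebf2 (0.64). In monocyte-like cells 0 of 13 were past 1.5-fold, and Hmgcs1 stood at -0.32 with an interval that includes 0 (-0.75 to 0.12). The naive B-like and the monocyte-like class therefore sat at the 2 ends of the range.

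Of 14 LXR target genes 10 were compared in all kept cells, 0 were at least 1.5-fold higher and 1 lower, against 3.06% and 3.32% of all genes, with a median of -0.22 beside -0.01. Mylip, a ubiquitin ligase (chr13:45543215-45565501), had 104 CPM in P-LC24 and 60.0 in I-LC32 (-0.79, -0.85 to -0.73). The desaturase Scd1 (-0.47), the cholesterol exporter Abca1 (-0.44) and apolipoprotein E (Apoe, -0.41) followed, and the phosphodiesterase Smpdl3a went the other way (0.49). The median was below 0 in 8 of the 9 classes compared and -0.06 in the high cholesterol pair. In naive B-like cells Mylip (-0.85) and Apoe (-0.63) were past 1.5-fold. In monocyte-like cells Apoe was at 2117 and 835 CPM (-1.34, -1.40 to -1.28), the receptor gene Nr1h3 (LXR alpha) had 102 and 63 UMIs (-1.51), and the lipid transfer gene Pltp was higher at 1.10. Apoe was at 2537 and 1138 CPM in cluster 11, at 204 and 132 CPM in naive B-like cells and at 15.2 and 37.7 CPM in the T cells of cluster 3. The part of free RNA in these levels was not tested. In cluster 11 the B cell gene Cd79a was at 154 and 1501 CPM, so its Apoe values cannot be read as those of 1 cell type.

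**Figure D4:**
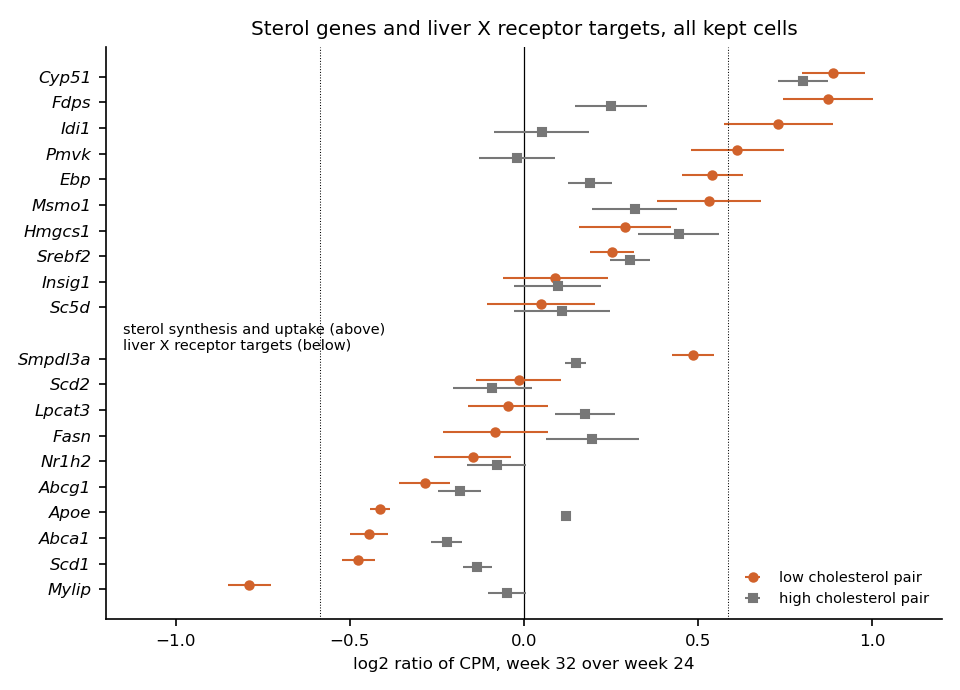
Log2 ratio of CPM, week 32 over week 24, in all kept cells (x axis) for genes of the sterol list (above) and the LXR target list (below), with 95% intervals for counting error. Circles are the low cholesterol pair and squares the high cholesterol pair, and dotted lines mark 1.5-fold; in the low cholesterol pair Cyp51, Fdps, Idi1 and Pmvk lie right of the line and Mylip (-0.79) left of it.

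In naive B-like cells, the most numerous class, Lmna and members of the activation and immediate early lists were among the higher genes. Of 5980 genes compared 195 (3.26%) were at least 1.5-fold higher in I-LC32 and 191 (3.19%) lower. Lmna, which encodes lamin A (chr3:88387454-88417299), was highest among the genes named by rule, with 658 and 3094 UMIs, or 50.5 and 204 CPM (2.01, 1.89 to 2.14). On the list of activation genes (vimentin, galectins, S100 proteins) 4 of 12 compared were higher, S100a6 with 1200 and 5573 UMIs (2.00), Lgals1 (1.42), Vim (1.30) and Capg (0.92), and 0 lower, with a median of 0.48. S100a6 is also on the list of B-1 genes, and the part of RNA from B-1-like cells in these ratios was not tested. Of 23 immediate early genes 8 were higher and 2 lower (median 0.45), with Atf3, a stress-induced factor, at 298 and 1263 UMIs (1.86) and Btg1 at -0.73 and Egr3 at -0.77. Immediate early genes are known to respond to tissue digestion, whose part in these ratios was not tested. Sh2d4b (1.68), Amz1 (1.67) and Rfx2 (1.43) were also high. Angptl1 was lowest, at 893 and 218 UMIs (-2.25), so that most of its UMIs in P-LC24 came from this class. H4c4 (-2.09), H1f4 (-2.06) and the lectin Clec2g (-1.56) followed. Of 13 follicular B cell genes 3 were lower, among them Cr2 (-0.92) and Zfp318 (-0.71), which permits IgD, while Klf2 (0.51) and Ccr7 (0.46) leaned the other way below 1.5-fold. Cells over 5% mitochondrial UMIs were 10.5% of this class in P-LC24 and 44.8% in I-LC32.

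In B-1-like cells 308 of 7927 genes (3.89%) were higher and 256 (3.23%) lower. Genes named by rule were Mapkbp1 (27 and 185 UMIs, 1.55), Mcmdc2 (50 and 334, 1.52), Thbs3 (1.42), Zfp296 (1.41) and Zfp69 (1.37) among the higher ones, all at under 25 CPM, and H1f4 (-1.81), H4c4 (-1.70), Sox5os3 (-1.40), Usp50 (-1.32) and the translation inhibitor Pdcd4 (3687 and 3448 UMIs, 539 and 216 CPM, -1.32) among the lower. Other genes past 1.5-fold, named after their values had been seen, were the chemokine Ccl5 (185 and 1407 UMIs, 1.71) and the adhesion molecule Icam1 (121 and 700, 1.31). Ccl5 is also on the list of cytotoxic genes and stood at 1577 CPM over all kept cells of I-LC32. Suspected doublets were 7.0% of the B-1-like cluster, and the part of RNA from other cells in the Ccl5 ratio was not tested. Of 13 B-1 genes compared 0 were higher and 2 lower, Ahnak (-0.94) and Tppp3 (-0.97), and the median was -0.09, so that the B-1 genes showed no common shift in B-1-like cells. The higher ratio of Zbtb32 in all kept cells (1.10, with 906 and 3242 UMIs) stood at 0.59 with fixed shares. The natural antibody V gene Ighv11-2 gave 115 of 303 heavy chain V UMIs of B-1-like cells in P-LC24 (32.5% to 43.7%) and 115 of 400 in I-LC32, or 28.8% (24.4% to 33.5%).

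Class-switched antibody UMIs were a larger share in I-LC32, and most of the difference came from 2 cells. In naive B-like cells IgG, IgA and IgE made up 0.265% of heavy chain constant UMIs in P-LC24 and 6.31% in I-LC32, and in B-1-like cells 0.547% and 5.34%. One cell held 2185 of the 2599 Igha UMIs of I-LC32, and 1 other cell 2752 of its 2976 Ighg2b UMIs. Both carried Jchain (610 and 721 UMIs), the joining chain of secreted antibody, so they have a leading plasma cell gene although they were clustered as B-like. Without them the share in I-LC32 was 0.561% (0.486% to 0.645%) in naive B-like cells, still above the 0.265% (0.216% to 0.322%) of P-LC24. In B-1-like cells it was 0.515% (0.457% to 0.580%), which overlapped the interval of P-LC24 (0.459% to 0.647%). A cell in the basophil-like cluster of I-LC32 held 10242 of the 136000 Iglc1 UMIs, with 1205 Jchain UMIs, 0 of Ighv8-5 and 0 of Mcc, and did not belong to the Iglc1 and Mcc cells described first.

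Cluster 4, the T cells with Gzmk, Pdcd1 and Tox, held more cells in I-LC32 with less of the exhaustion and cytotoxic genes. Of 6775 genes compared in it 386 (5.7%) were at least 1.5-fold higher and 483 (7.13%) lower. Of 20 exhaustion genes 18 were compared, 14 were lower and 0 higher, with a median of -0.92. Havcr2 (chr11:46345673-46374149) had 177 UMIs in P-LC24 and 61 in I-LC32, or 96.6 and 13.3 CPM, a log2 ratio of -2.86 (-3.31 to -2.44). The inhibitory receptors Tigit (158 and 139 UMIs, -1.51), Cd160 (-1.42), Lag3 (-1.37) and Pdcd1 (241 and 265, -1.19), the ectonucleotidase Entpd1 (CD39, -1.32), the regulators Prdm1 (-1.54) and Rgs1 (-1.43) and the transcription factor Tox (1602 and 951 CPM, -0.75) were also lower. Ctla4 (-0.45), Id2 (-0.41) and Tnfrsf9 (-0.25) lay below 1.5-fold. All 18 compared genes of the list thus had ratios under 0. Of 16 cytotoxic genes 8 were lower and 0 higher, with Gzma at 801 and 229 CPM (-1.80), interferon gamma (Ifng) at -1.13, Prf1 at -0.83 and Gzmb at -0.77, and Ctsw at 0.56. The chemokines Ccl3 (250 and 132 UMIs, -2.25) and Ccl4 (1200 and 884, -1.77), the Rac regulator Chn2 (-2.53) and the lipid flippase Atp8a2 (-2.21) were the other genes at the low end. At the high end stood Ly6c2 (167 and 1315 UMIs, 1.65), Gstp3 (1.61), Lmna (1.31), Phb2 (1.22) and Tanc2 (1.18), and 5 of 15 activation genes, Capg (1.40), Lgals3 (1.36), S100a4 (1.05), Vim (0.93) and Lgals1 (0.92).

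The same genes were as far apart within the Cd8a+ part of cluster 4 alone. There Havcr2 went from 127 to 16.7 CPM, Chn2 from 303 to 35.7, Ccl3 from 180 to 38.6, Ccl4 from 866 to 258, Gzma from 1059 to 308, Pdcd1 from 156 to 60.9 and Tox from 1824 to 1029. Ly6c2, a marker of memory CD8 T cells, went from 113 to 377 CPM, Plac8 from 110 to 338 and Lgals3 from 58.5 to 159. Plac8 was at 1620 CPM in B-1-like cells of I-LC32 without the Iglc1 and Mcc cells. In cluster 4 as a whole Cd79a was at 150 CPM in P-LC24 and 301 in I-LC32, and the part of B cell RNA in these ratios was not tested. In the Cd4 part Havcr2, Ccl3, Ccl4, Gzma and Gzmb had 4 or fewer UMIs in each library and gave no ratio, and Pdcd1 had 25 and 57 (-0.36), with an interval that includes 0. In all kept cells the median of the 9 exhaustion genes compared was -0.47 in the low and 0.35 in the high cholesterol pair. Most kept cells of each library had a Cd79a UMI, and the high cholesterol libraries were not clustered. These medians are therefore not values of T cells and cannot be set beside those of cluster 4. Whether the cells of cluster 4 changed or other cells took their place cannot be told apart.

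**Figure D5:**
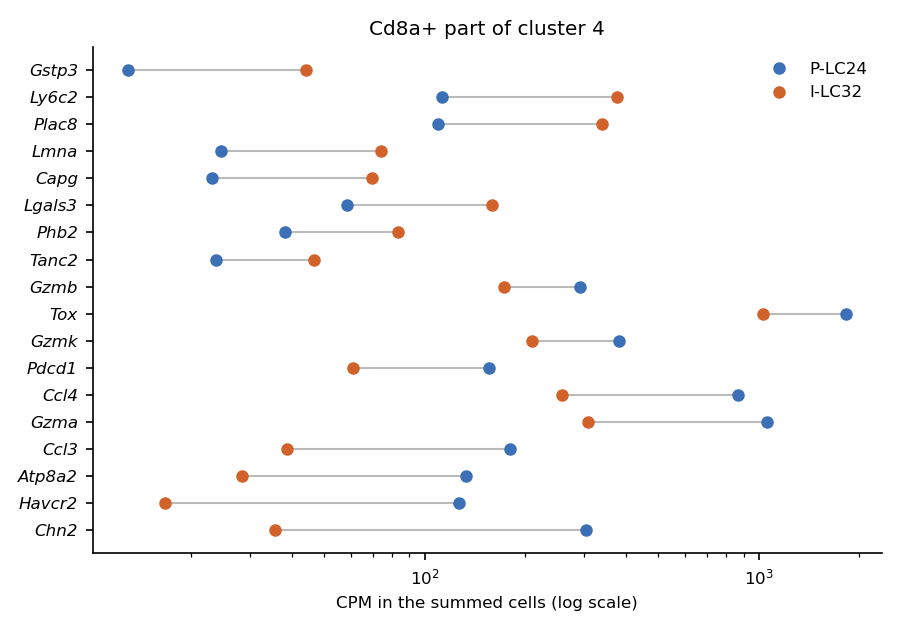
CPM (x axis, log scale) in the summed cells of the Cd8a+ part of cluster 4, for P-LC24 (208 cells) and I-LC32 (449 cells), with a grey line between the 2 values of a gene. Havcr2 (127 and 16.7 CPM), Chn2, Ccl3 and Gzma lie to the left in I-LC32, and Ly6c2 (113 and 377 CPM), Plac8 and Lgals3 lie to the right.

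The same lists were also counted in other T cells. In cluster 6, with Klrc2, Gzmm and Ly6c2, 3 of 11 exhaustion genes were lower and 2 higher, with a median of -0.46, and 2 of 13 cytotoxic genes were lower and 1 higher, with a median of 0.10 (342 of 6210 genes, 5.51%, were higher in it and 210, 3.38%, lower). The granzyme inhibitor Serpinb9 had 213 and 111 UMIs (-1.35), and Vim was highest with 879 and 2911 UMIs (1.32), followed by Cdk6 (1.16). In cluster 3, 5 of 15 genes of naive and quiescent T cells were lower and 0 higher (background 3.84% lower), among them Il7r (IL-7 receptor, 1366 and 774 CPM, -0.82), S1pr1 (-0.72), Tcf7 (-0.63) and Txk (-0.60). Lef1 (-0.17) and Klf2 (0.27) of the same list lay below 1.5-fold. Fosb (156 and 485 UMIs), the extracellular matrix protein Ecm1 (1.22) and choline kinase Chka (1.21) were high in cluster 3, and Bend4 (-1.38) and Art2b (-1.25) low.

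NK-like cells were fewer in share and held somewhat less of the Ly49 receptors. Of 4669 genes 171 (3.66%) were higher and 259 (5.55%) lower. Of 19 NK receptor genes 4 were at least 1.5-fold lower and 0 higher, with a median of -0.39, and all 4 belong to the Ly49 family: Klra8 (Ly49H) with 1488 and 528 UMIs, or 794 and 486 CPM (-0.71, -0.85 to -0.56), Klra1 (-0.77), Klra9 (-0.60) and Klra4 (-0.59). Reads of these closely related genes can be split between them. Ncr1 (-0.15) and the activating receptor Klrk1 (NKG2D, 0.16) were near level. Among cytotoxic genes Gzma (6446 and 5453 CPM, -0.24) and Prf1 (-0.32) lay below 1.5-fold. S1pr5 (-0.70) and Cx3cr1 (-0.67), receptors of mature NK cells, were past 1.5-fold on 54 and 39 UMIs in I-LC32. Gvin2 (222 and 46 UMIs, -1.48) was lowest among the genes named by rule, and Rbm3 (1.19), Ppp1r14b (1.15) and Vim (0.98) were among the highest.

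The monocyte-like class as a whole had less of the patrolling monocyte and lipid-handling genes in I-LC32 and more MHC class II. Of 7101 genes 488 (6.87%) were higher and 546 (7.69%) lower. Of 10 patrolling genes compared 6 were lower and 0 higher, with a median of -0.86. These were Ace (170 and 112 UMIs, -1.42), Clec4a3 (-1.11), the integrin Itgal (-0.99), Adgre4 (-0.89), the fractalkine receptor Cx3cr1 (207 and 113 CPM, -0.87) and Nr4a1 (-0.84), the factor that Ly6C-low monocytes need. Of 12 classical genes 1 was higher, Fn1 (0.68), and Ly6c2 (0.25) and Ccr2 (-0.07) lay near level in the class as a whole. Of 13 lipid-associated macrophage genes 5 were lower and 0 higher, with the fatty acid carriers Fabp4 (104 and 36 UMIs, -2.35) and Fabp5 (-1.25), Apoe (-1.34), lipoprotein lipase (Lpl, -0.72) and Ctsl (-0.70), and with Trem2 at -0.55. Of 12 MHC class II genes 4 were higher and 0 lower, H2-DMb2 (1.33), Cd74 (0.77), H2-DMb1 (0.63) and H2-Aa (0.61), whereas in naive B-like cells the list's median was -0.03. The B cell gene Cd79a was at 37.4 CPM in monocyte-like cells of P-LC24 and 144 in I-LC32, Iglc1 at 2.29 and 363, and 9 of the Iglc1 and Mcc cells lay in this class. In the T cells of cluster 3, where Cd79a was at 65.9 and 270.0 CPM, 9 of 10 MHC class II genes were higher, with a median of 1.61. The part of B cell RNA in the MHC class II ratios was not tested. Within the class, cells of a sub-cluster with dendritic cell genes numbered 46 in P-LC24 and 100 in I-LC32. How far these cells, or the split from cluster 11 with its patrolling genes, shaped the list ratios was not tested.

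This class had 2 parts, and its extreme genes came from different ones. In the part with Chil3 (122 and 192 cells) Negr1 went from 243 to 55.4 CPM (-2.13), the efferocytosis receptor Mertk from 101 to 26.1 (-1.96) and Ly6c2 from 610 to 1090 (0.84). In the part with Cd209a and Clec9a (46 and 100 cells), genes of dendritic cells, Cadm1 went from 503 to 43.4 CPM (-3.53), Ccr9 from 181 to 27.8 (-2.70), Havcr2 from 241 to 39.0 (-2.63) and Clec9a from 239 to 54.1 (-2.14), while Lyz1 went from 309 to 1112 (1.85), Stmn1 had 37 and 492 UMIs (2.45) and Plxna4 from 8.32 to 103 (3.63). Cadm1 and Clec9a are known from cross-presenting dendritic cells and Cd209a from another kind, and Cd209a was at 215 and 310 CPM. Ly6c2 went from 415 to 100 CPM (-2.05) in the part with Cd209a and Clec9a, opposite to the part with Chil3. With 46 cells in P-LC24 these values rest on few cells, and both parts were drawn after clustering on all genes.

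Cluster 11 and the erythroid-like cluster gave ratios that cannot be read as expression in 1 cell type. In cluster 11, with the patrolling monocyte genes Ace, Treml4 and Adgre4, 389 of 2841 genes (13.7%) were higher and 861 (30.3%) lower around a median of -0.26, and Fcmr (2 and 257 UMIs), Mzb1 (21 and 384) and MHC class II genes led it in I-LC32. Its median mitochondrial share was 2.17% in P-LC24 and 7.61% in I-LC32, and Cd79a stood at 154 and 1501 CPM. In the erythroid-like cluster, where 23.8% of 4295 genes were higher and 2.26% lower, haemoglobin made up 423830 and 304800 CPM, and S100a9, a neutrophil gene, had 3342 UMIs in P-LC24 and 2 in I-LC32. In cluster 10, B cells with Vpreb3 and Iglc2, 139 of 3160 genes (4.4%) were higher and 170 (5.38%) lower around a median of -0.01. Cluster 11 and the erythroid-like cluster were left out of the counts of list medians over classes.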

How the data were processed

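Livers were digested with collagenase IV, red cells were lysed, dead cells were removed and libraries were made with the 10x 3' kit, version 3.1. The authors deposited UMI counts per gene and barcode for 33696 genes, made with Cell Ranger 9.0.1 on GRCm39, and the submitters' notes also name Seurat 5.3. The counts as deposited carry no correction for free RNA here. Cells of P-LC24 and I-LC32 were normalized with sctransform 0.4.2 in Seurat 5.3.0 (R 4.3.3, 3000 variable genes). They were integrated with Harmony (own implementation, tested on simulated data) on 30 components. Clusters were drawn with the Leiden method (leidenalg 0.10.2, 20 neighbours, resolution 0.4). Cells of P-HC24 and I-HC32 were not clustered. Suspected doublets were left out only as an alternative. Counts were summed per library and class and scaled to a common total (CPM). Genes were compared where 10% or more of the cells of one library held them and both libraries together had 100 or more UMIs, in classes with at least 50 cells in each library. No test was possible with 1 library a side, and 1.5-fold was used to count genes. Genes named by rule were the 10 highest and 10 lowest ratios in all cells and the 5 highest and 5 lowest in a class, with at least 200 UMIs over both libraries and, in a class, at least 20% of the CPM of the class that was highest for the gene. Immunoglobulin, T cell receptor, haemoglobin, mitochondrial and unnamed genes were left out of that rule, which also names the highest, lowest and most abundant member of a list. Some genes that it names are not reported here. Other genes come from 47 lists or were named after their values had been seen, as were the genes of finer clusters and of the Iglc1 and Mcc cells. Members and lists were chosen with earlier results of these data known. 30 alternatives were planned and 2 were added after the data were seen.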

Additional observations from a re-analysis of the deposited data

Results flagged for a closer look

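The following 3 results went in opposite directions in the 2 cholesterol pairs, and the difference between the pairs was not tested, since each side is 1 library. Lysmd4 had a log2 ratio of week 32 over week 24 of -1.38 in the low cholesterol pair and 0.23 in the high cholesterol pair. The median of the T cell exhaustion list over all kept cells was -0.47 in the low cholesterol pair and 0.35 in the high cholesterol pair. Most kept cells had a Cd79a UMI, so this is not a value of T cells. The median of the mitochondrially encoded genes was 0.29 in the low cholesterol pair and -0.27 in the high cholesterol pair. The median of all genes compared was 0.19 in the high cholesterol pair and -0.01 in the low one.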

How the results depend on the processing

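No paired analysis was possible because each group is 1 library of pooled mice. Differences in share are in percentage points, week 32 less week 24, and the cause of a move was not tested. With a mitochondrial limit of 5% they were -11.9 for naive B-like (-9.81 as reported), 0.682 for B-1-like (5.77), 1.94 for cluster 3 (-1.55, thus of the other sign), 6.92 for cluster 4 (3.49), 2.07 for cluster 5 (5.82), 3.502 for monocyte-like, -2.18 for NK-like (-3.00), -0.661 for cluster 11 (0.251, again of the other sign), 0.913 for peritoneal macrophage-like, 0.370 for basophil-like, 0.539 for dendritic-like, -10.6 for all B cells (0.661, of the other sign), 9.88 for all T cells (2.59) and 2.42 for myeloid cells (-0.538, of the other sign). At that limit the lambda share of B cells differed by 7.11 points (11.4) and the Iglc1 and Mcc share by 6.70 (11.1), and by 12.1 with at least 20 light chain UMIs a cell. B-1-like cells differed by 11.4 at resolution 0.2, 3.72 without integration and 8.59 with log-normalized counts, which gave -12.0 for naive B-like, -0.341 for monocyte-like (0.702), -0.171 for basophil-like (0.0957) and -2.02 for myeloid cells. Cluster 5 differed by 8.57 without integration. Of all share values 126 stayed within the counting interval and 22 moved. In all kept cells 1364 genes were at least 1.2-fold higher and 1314 lower, and 40 and 39 at least 2-fold. A filter of 20 UMIs alone gave 1833 higher and 2564 lower genes at 1.5-fold, and fixed class shares 117 higher. Summed over classes (4864 higher and 3894 lower) these were 16196 and 13368 at 1.2-fold, 1147 and 942 at 2-fold and 15525 and 11839 with the 20 UMI filter. Lists with a median at least 1.2-fold higher or lower numbered 8 and 2, 4 and 1 with fixed shares and 5 and 1 within naive B-like cells. With fixed shares the B-1 list went to -0.0857 and the age-associated B cell list to -0.103, and within naive B-like cells MHC class II went to -0.0254, each of the other sign. Clusters 5, 11, 13 and 19 and the cycling-like cluster were not found again under some clusterings and gave no value there. Leaving out the Iglc1 and Mcc cells, or cells with at least 500 UMIs of 1 switched constant region, was chosen after seeing the data.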

Other observations

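Proteasome subunits, which degrade ubiquitin-tagged proteins, had a median ratio above that of all genes in I-LC32. Of 31 compared in all kept cells 2 were at least 1.5-fold higher and 0 lower, where 3.06% and 3.32% of all genes were, and Psmc1 was at -0.19. The list had a median log2 ratio of 0.28, against -0.01 over all genes and 0.05 for the list in the high cholesterol pair. The median was above 0 in 9 of 9 classes, from 0.13 to 0.30. Of 83 ribosomal protein genes 2 were higher and 12 lower (3.06% and 3.32% of all genes) around a median of 0.00, and of 21 type I interferon-stimulated genes 0 were past 1.5-fold in either direction, with a median of -0.09. Heat shock chaperones had a median of 0.05 in the low cholesterol pair and 0.67 in the high cholesterol pair.

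Mitochondrially encoded genes did not move as 1 group. Of 13 compared 1 was higher, mt-Co3 (0.62), and 3 were lower, mt-Atp8 (-1.30), mt-Nd6 (-1.24) and mt-Nd4l (-0.90), with a median of 0.29. Over all genes 3.06% were higher and 3.32% lower.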
